A study of Mus musculus with 203 samples.

Results

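The 8 genes described here are the MS4A cluster genes Ms4a4a, Ms4a4c, Ms4a6b, Ms4a6c, Ms4a6d and Ms4a7 and the neighbouring genes Tmem176a and Tmem176b. They were taken by gene symbol from the 25094 genes of an RNA-seq table of RAW cells, and all 8 were also among the 16478 genes of a table of bone marrow-derived macrophages (BMDMs). The genes were chosen by earlier measured changes in these data, in which Ms4a4a and Tmem176b were among the strongest, so the values of these genes are given without a test, as are those of Tmem176a after KDM1A knockdown, since it was listed with its neighbour. The study asked how the corepressor subunit GPS2 and the histone demethylase KDM1A (LSD1) act on the response of mouse macrophages to IL4. RAW cells (RAW264.7, a macrophage line from BALB/c mice) carried a lentiviral shRNA against GFP (shGFP) or against Kdm1a (shKDM1A), and each of these stable, puromycin-selected lines was left as control or given 20 ng/ml IL4 for 6 h, with 4 libraries per group and 16 in all. The knockdown rests on 1 shRNA, and the study's methods speak of biological replicates for its experiments in general. No label says whether the 4 libraries of a group came from separate cultures, so the p-values below measure the spread between these libraries, which may in part be technical. The BMDMs came from WT mice and from mice lacking Gps2 in macrophages (Gps2 KO), on a C57BL/6 background, as control or with 20 ng/ml IL4 for 6 h. Their table held only the authors' own comparisons, so no BMDM value is given and all values below are from RAW cells; the other assays among the 203 samples of the study were not analysed here.

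MS4A proteins are small membrane proteins that cross the membrane several times and sit beside immune receptors and change how these signal. The best known member is CD20 (Ms4a1), the B cell antigen, while several others are used by macrophages and Ms4a4a is known as a surface protein of macrophages activated by IL4. TMEM176A and TMEM176B are relatives of the MS4A proteins that act as cation channels in the membranes of endosomes and phagosomes. They are known for roles in antigen presentation by dendritic cells, and TMEM176B is known to restrain the NLRP3 inflammasome.

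In the mm9 assembly, the 6 MS4A genes lie within 283.8 kb of chromosome 19. In order they are Ms4a7 (chr19:11395529-11410636, minus strand), Ms4a4a (chr19:11449978-11467405, plus strand), Ms4a4c (chr19:11482151-11501736, plus strand), Ms4a6c (chr19:11543858-11556686, plus strand), Ms4a6b (chr19:11593049-11604893, plus strand) and Ms4a6d (chr19:11661096-11679294, minus strand). Tmem176b (chr6:48783811-48790987, minus strand) and Tmem176a (chr6:48791482-48795363, plus strand) lie head to head on chromosome 6, with 494 bases between the starts given in the table and 108 bases between the outermost Tmem176b start in the GENCODE annotation and the Tmem176a start. In that annotation 7 of the 8 genes were found, as protein-coding genes, and none of the 8 spans overlapped another gene. The stretch between the Tmem176 starts is shown because both genes are read outward from it. It is chr6:48791374-48791481, plus strand, and the capitals mark the letters AGGAAGT, the core that ETS factors such as PU.1, a factor that macrophages depend on, are known to bind.
Tmem176b to Tmem176a: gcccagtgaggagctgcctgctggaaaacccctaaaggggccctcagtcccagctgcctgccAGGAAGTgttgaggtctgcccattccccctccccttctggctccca

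The same letters stood before the starts that the table gives for the 3 MS4A genes with the highest levels. In GENCODE, other transcripts of Ms4a6b and Ms4a6d start farther out, so both Ms4a6b copies and the nearer Ms4a6d copy lie within the annotated span of their own gene. The 30 bases around each match are shown because they show which copies these genes share, with AGGAAGT or its reverse complement ACTTCCT in capitals. The positions are chr19:11592950-11592979 and chr19:11592993-11593022 for Ms4a6b, chr19:11543828-11543857 for Ms4a6c, and chr19:11679346-11679375 and chr19:11679305-11679334 for Ms4a6d, each read 5′ to 3′ on the strand of its gene.
Ms4a6b, farther copy: gactttctgatatAGGAAGTacaggcacaa
Ms4a6c: gactttctgatatAGGAAGTacaggcacag
Ms4a6d, farther copy: aagtctatgaaaaAGGAAGTaaaggcacat
Ms4a6b, nearer copy: cctgttaagcaccACTTCCTgtgcagtgaa
Ms4a6d, nearer copy: gactgtaagcgccACTTCCTgtgcagtgag

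The farther copy of Ms4a6b lies in a run of 48 bases, 118 to 71 bases before its start, that is identical in Ms4a6c 49 to 2 bases before its start. The nearer copy lies in a run of 18 bases, 45 to 28 bases before the Ms4a6b start, that is identical in Ms4a6d 29 to 12 bases before its start. In the 300 bases before the start, AGGAAGT was found on either strand in 4 of the 8 genes (Ms4a6b, Ms4a6c, Ms4a6d and Tmem176a) and in 8.46% of the 25010 windows of the same length before all genes. These letters were chosen after the sequences had been read, and a match describes letters and not a bound site. Of 5 other motifs searched on both strands, the letters TTC and GAA with 4 bases between them, bound by the IL4-activated factor STAT6, were found only before Ms4a7 (6.81% of all windows). GAGGAAG, a PU.1 motif that shares the letters AGGAAG with the ETS core, was also found only before Ms4a7 (12.5%). TGANTCA (AP-1, 7.23% of all windows), a repeat of GAAA with any 2 bases between (IRF, 3.81%) and TTGCNNAA (C/EBP, 10.9%) were found before none of the 8 genes. The Tmem176b window, before the start in the table, lies within the annotated span of that gene and holds exons of it. The stretch shown between the Tmem176 starts was searched as part of the Tmem176a window. The Ms4a7 window is shown for its STAT6 letters, in capitals, which lie 13 to 4 bases before the start (chr19:11410637-11410666, minus strand).
Ms4a7: tgtgtaatcacgagtacTTCCGGGGAAagc

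The MS4A6 genes also resembled each other in their coding sequence. Ms4a6b and Ms4a6d were identical at 80.2% of aligned coding positions, Ms4a6b and Ms4a6c at 74.6% and Ms4a6c and Ms4a6d at 67.3%, against 52.9% for Tmem176a and Tmem176b. Words of 50 bases that also occur in another family gene made up 6.06% of the words of the Ms4a6c transcripts, 3.30% of Ms4a6b, 2.69% of Ms4a6d and 4.96% of Ms4a4c, so reads from those stretches could have been counted for either gene. The transcripts of Ms4a7, Tmem176a and Tmem176b shared no such word.

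The 16 libraries held about 17550000 to 27780000 tags, with a median of about 21440000. Replicates of a group differed by a median of 0.036 to 0.056 on the log2 scale over genes with a mean value of at least 1, and no replicate pair was identical. Kdm1a ranged from 11.13 to 11.23 in shGFP control cells and from 10.23 to 10.36 in shKDM1A control cells, and it fell by 0.88 ± 0.03 in the knockdown (log2 change ± SE, limma adjusted p = 5.62e-13). With IL4 it ranged from 11.07 to 11.12 in shGFP and from 10.28 to 10.34 in shKDM1A cells. Of 8 macrophage markers, 7 passed the filter for low values, led by Lyz2, Csf1r, Cd68 and Spi1, while Mertk was near -1.0 in every group. The summed level of the 8 markers was 17.44 to 17.50 in shGFP control, 17.18 to 17.21 in shGFP IL4, 17.68 to 17.71 in shKDM1A control and 17.62 to 17.72 in shKDM1A IL4 cells on the log2 scale. Among the markers of B cells, T cells, mast cells, neutrophils and fibroblasts, only S100a8 passed the filter, and Cd3g, Ly6g, Col1a2, Dcn and all 4 mast cell markers were listed at 0 in every library. The dendritic cell markers Zbtb46 and Xcr1 passed it, and Flt3 and Ccr7 did not.

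Tmem176b had the highest level of the 8 genes in shGFP cells and Ms4a4a the lowest. Values are on the log2 scale of the deposited table, which pulls genes with few reads towards a constant, so small changes of low genes are understated. Between genes, levels are compared as the log2 value minus log2 of the transcript length in kb. On this scale, the mean levels in shGFP control cells were 10.04 for Tmem176b, 8.95 for Ms4a6d, 8.55 for Ms4a6c, 8.08 for Tmem176a, 7.40 for Ms4a6b, 2.59 for Ms4a4c, 0.55 for Ms4a7 and -0.28 for Ms4a4a. No neighbours in this order overlapped over the 4 libraries. Tmem176b stood above 86.6% of the 12905 genes tested on the same scale, Ms4a6d above 72.5% and Ms4a4c above 10.6%. In shKDM1A control cells Ms4a6d (9.02) and Ms4a6c (8.73) came first, Tmem176b stood at 7.70 to 7.84 and overlapped with Ms4a6b at 7.58 to 7.74, and Tmem176a followed at 6.75.

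**Figure D1:**
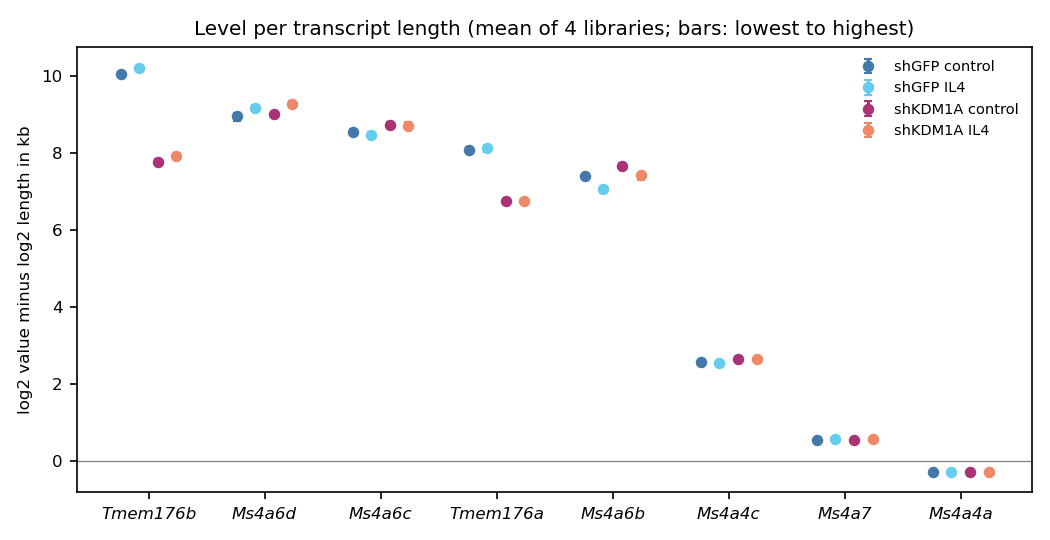
The plot of levels per transcript length gives, for each of the 8 genes, the mean of 4 libraries in each group as the log2 value minus log2 of the transcript length in kb, with bars from the lowest to the highest library. Tmem176b is the highest gene in shGFP cells and lies below Ms4a6d and Ms4a6c in shKDM1A cells, while Ms4a7 and Ms4a4a stay at the bottom in all 4 groups.

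**Figure D2:**
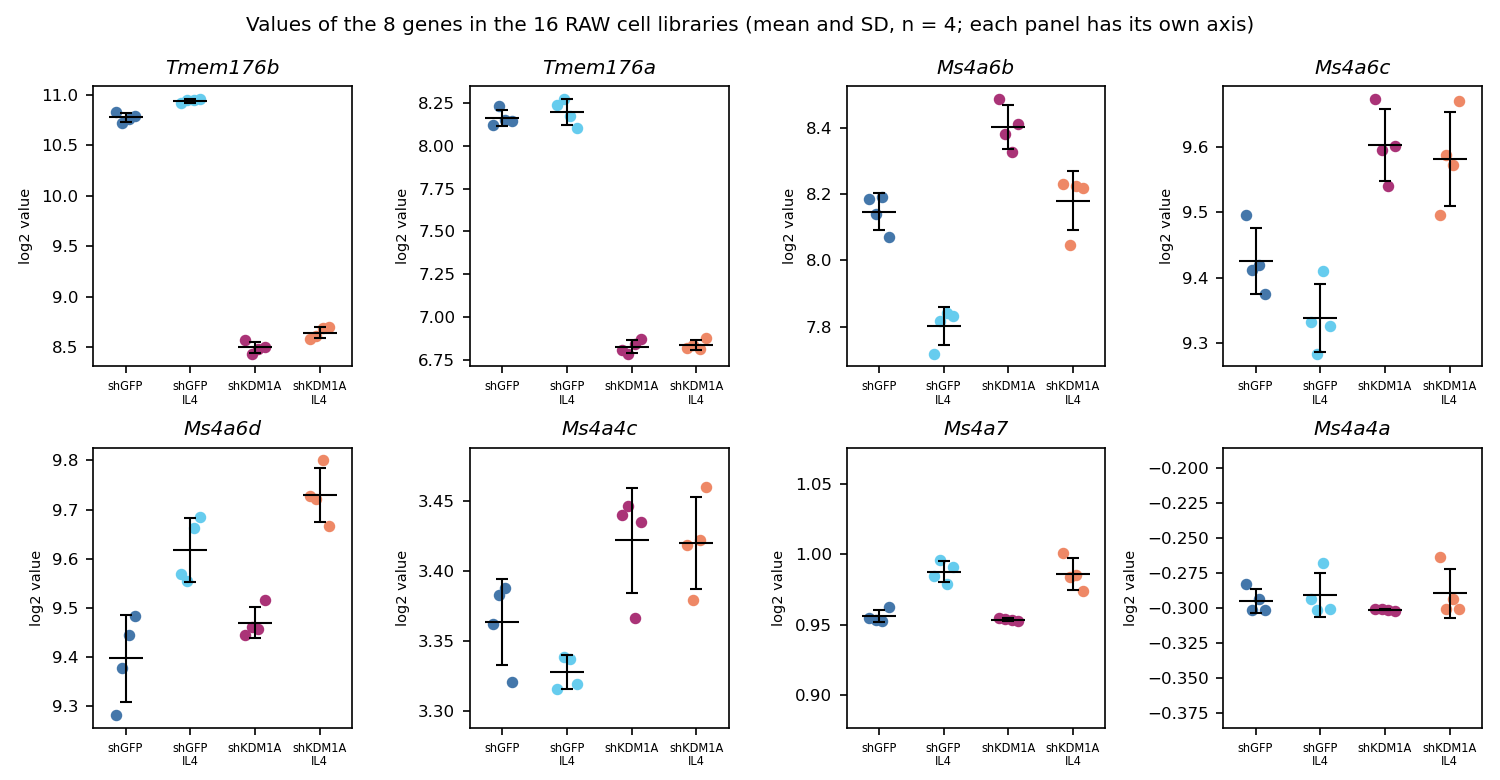
The plot of the 8 genes by library gives the log2 value of each of the 16 RAW cell libraries as a point, with the mean and SD of each group (n = 4), on a separate axis for each gene. Both Tmem176 genes separate shGFP from shKDM1A libraries, Ms4a6b and Ms4a6d move with IL4 in opposite directions, and Ms4a7 stays between 0.95 and 1.00 in all libraries.

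Both Tmem176 genes were lower in shKDM1A cells. Tmem176b was at 10.83, 10.72, 10.76 and 10.79 in the shGFP control libraries and at 8.57, 8.44, 8.48 and 8.51 in the shKDM1A control libraries. Its log2 change was -2.28 ± 0.03 (SE), or 4.85-fold lower, the third largest change in either direction of the 12905 genes tested. Tmem176b was chosen for its strong change, so this place and those given below, with and without IL4, restate the choice. Tmem176a was at 8.12, 8.23, 8.15 and 8.15 in shGFP control and at 6.81, 6.79, 6.84 and 6.87 in shKDM1A control libraries, a log2 change of -1.34 ± 0.03 or 2.52-fold lower. Every shKDM1A library was below every shGFP library for both genes, and among the genes ordered from the most lowered, Tmem176b held place 2 and Tmem176a place 7. The share of all genes whose groups do not overlap was not counted, so statements on overlap, here and below, only describe the listed values. The contrast called 4927 genes in all, 38.2% of those tested, with 19.7% higher and 18.4% lower. In bulk RNA, fewer cells that express a gene and less RNA of it per cell cannot be told apart.

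With IL4 the difference between the lines was of similar size for both Tmem176 genes. Tmem176b was at 10.91, 10.95, 10.95 and 10.96 in the shGFP IL4 libraries and at 8.58, 8.61, 8.69 and 8.69 in the shKDM1A IL4 libraries, a log2 change of -2.30 ± 0.03 (4.92-fold lower, place 1 among the lowered genes). Tmem176a was at 8.24, 8.28, 8.18 and 8.10 in shGFP IL4 and at 6.82, 6.84, 6.81 and 6.88 in shKDM1A IL4 libraries, a log2 change of -1.36 ± 0.03 (2.57-fold lower, place 7). The libraries of the lines again did not overlap for either gene, and this contrast called 40.7% of the genes tested, 20.9% higher and 19.8% lower. It uses other libraries than the contrast without IL4, but the same cell lines.

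Tmem176b was lowered more than Tmem176a, so the distance between the neighbours narrowed. The log2 value of Tmem176b minus that of Tmem176a was 2.61 ± 0.09 in shGFP control and 2.74 ± 0.09 in shGFP IL4 cells (SD, n = 4), and 1.67 ± 0.06 in shKDM1A control and 1.81 ± 0.05 in shKDM1A IL4 cells. It lay at 2.49 or above in every shGFP library and at 1.88 or below in every shKDM1A library. Per transcript length it went from 1.96 to 1.02 without IL4. The log2 scale of the table pulls lower genes towards a constant, and Tmem176a is the lower gene. The part of this in the narrowing was not tested.

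After KDM1A knockdown 2 MS4A genes moved the other way, by much smaller amounts. Ms4a6b, the MS4A gene that moved furthest, was at 8.18, 8.14, 8.19 and 8.07 in shGFP control and at 8.49, 8.38, 8.33 and 8.41 in shKDM1A control libraries, and it rose by 0.26 ± 0.04 (log2 change ± SE, limma adjusted p = 0.000236). Ms4a6c was at 9.50, 9.41, 9.42 and 9.37 in shGFP control and at 9.67, 9.59, 9.54 and 9.60 in shKDM1A control libraries, and it rose by 0.18 ± 0.04 (adjusted p = 0.00157). The shKDM1A libraries lay above all shGFP libraries for both genes. Ms4a6d, whose change was 0.07 ± 0.04 (95% interval -0.015 to 0.16, adjusted p = 0.19), and Ms4a4c, at 0.06 ± 0.02 (0.0098 to 0.11, adjusted p = 0.0552), did not pass the test. Ms4a4c passed it without shKDM1A control replicate 3 (adjusted p = 0.0135), without shKDM1A IL4 replicate 2 (0.0471) and without shKDM1A IL4 replicate 4 (0.0477). Thus 2 of these 4 MS4A genes were called higher, and a further tested family gene, Ms4a4b, was not, where 19.7% of all genes were.

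In the presence of IL4 the same direction was seen for all 4 of them. Ms4a6b was at 7.72, 7.82, 7.84 and 7.83 in shGFP IL4 and at 8.23, 8.05, 8.22 and 8.22 in shKDM1A IL4 libraries, a rise of 0.38 ± 0.04 (adjusted p = 3.99e-06). Ms4a6c was at 9.33, 9.28, 9.41 and 9.33 in shGFP IL4 and at 9.50, 9.59, 9.57 and 9.67 in shKDM1A IL4 libraries, a rise of 0.24 ± 0.04 (adjusted p = 8.93e-05). Ms4a4c rose by 0.09 ± 0.02 (adjusted p = 0.00413), from 3.32 to 3.34 in shGFP IL4 to 3.38 to 3.46 in shKDM1A IL4 libraries. None of these 3 genes overlapped between the lines, which is given as a description, without the share over all genes.

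Ms4a6d passed the test by a narrow margin with IL4 (0.11 ± 0.04, adjusted p = 0.0427), and its groups overlapped, with shGFP IL4 libraries at 9.57, 9.55, 9.66 and 9.69 and shKDM1A IL4 libraries at 9.73, 9.72, 9.80 and 9.67. Over the 16 fits that each left out 1 library, its adjusted p ranged from 0.0203 to 0.132. It exceeded 0.05 without shGFP control replicate 2, shGFP IL4 replicate 1 or 2, shKDM1A control replicate 2 or 3, or shKDM1A IL4 replicate 1, 2 or 3. The 20.9% of genes called higher in this contrast is the share against which the 4 calls stand. The summed macrophage markers were also higher in shKDM1A than in shGFP libraries, with and without IL4, as given above, and of the 7 markers tested 5 rose and 2 fell in each contrast. Their part in the changes of the MS4A genes was not tested.

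**Figure D3:**
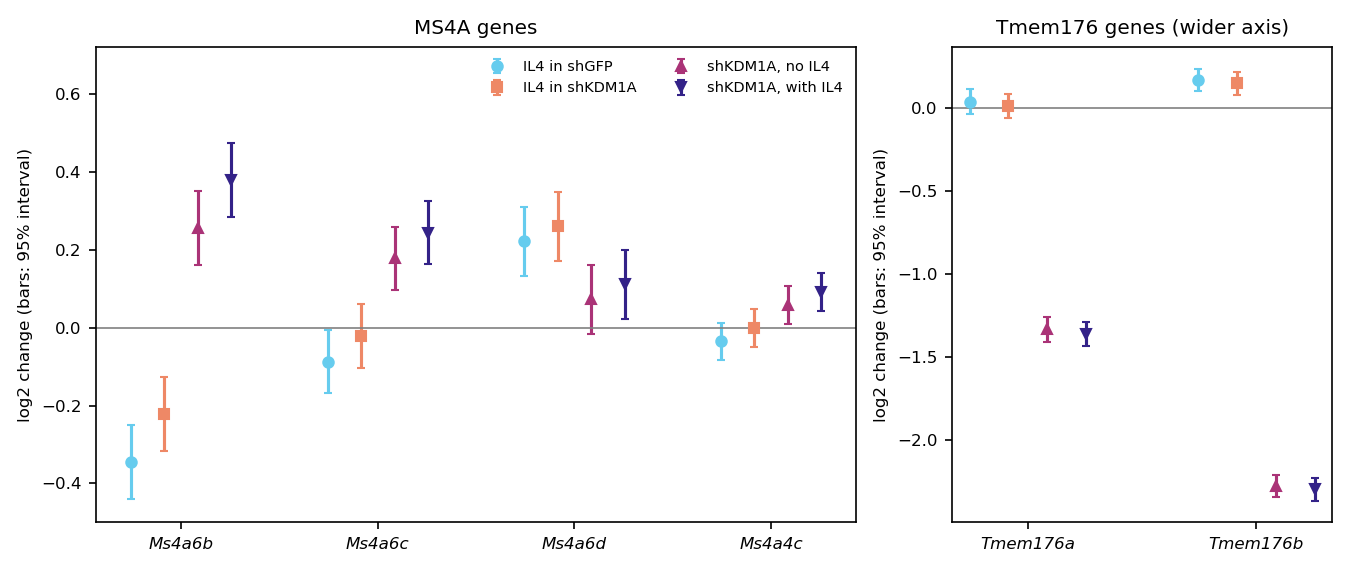
The plot of log2 changes gives, for the 6 genes that passed the filter, the change with IL4 in each line and with shKDM1A in each condition, with 95% intervals from limma as bars. The MS4A genes lie within 0.5 of 0, with Ms4a6b below 0 for IL4 and above 0 for shKDM1A, while the Tmem176 genes reach -1.36 and -2.30 for shKDM1A on a wider axis.

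IL4 moved 2 MS4A genes in opposite directions in shGFP cells. Ms4a6b fell by 0.35 ± 0.04 (log2 change -0.35, adjusted p = 1.79e-05), from the 8.07 to 8.19 of the control libraries to 7.72 to 7.84. Ms4a6d, which is known in macrophages as a partner of the receptor VSIG4, rose by 0.22 ± 0.04 (adjusted p = 0.000747), from 9.28, 9.38, 9.44 and 9.48 to 9.57, 9.55, 9.66 and 9.69. Neither gene overlapped between control and IL4 libraries. Ms4a6c (-0.09 ± 0.04, adjusted p = 0.11), Ms4a4c (-0.04 ± 0.02, adjusted p = 0.293) and Tmem176a (0.04 ± 0.03, adjusted p = 0.508) did not pass the test, and their groups overlapped. Tmem176b, given without a test, was 0.17 ± 0.03 higher with IL4, at 10.91 to 10.96 against 10.72 to 10.83. The 2 calls stand among 5 genes tested, where 26.9% of all genes were called, 13.1% higher and 13.7% lower.

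These changes were small beside those of known IL4 targets. Of 14 such genes, 11 could be tested, and 10 rose and none fell in shGFP cells, with a median log2 change of 0.45 against -0.00049 over all genes. Ptgs1, the cyclooxygenase-1 gene, rose by 1.77 ± 0.04, Mrc1, the mannose receptor, by 1.32 ± 0.03, Egr2 by 0.91 ± 0.05 and Socs1, an inhibitor of cytokine signalling, by 0.70 ± 0.05. The summed level of the macrophage markers, in which Lyz2 weighs most, was lower with IL4 in shGFP cells. Of the 7 markers tested, 2 fell, Lyz2 (-0.53 ± 0.03) and Fcgr1 (-0.12 ± 0.03), and 2 rose, Adgre1 (F4/80) by 1.24 ± 0.04 and Csf1r by 0.26 ± 0.02. The part of these markers in the changes of the MS4A genes was not tested.

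The same MS4A genes were called in shKDM1A cells. Ms4a6b fell from 8.49, 8.38, 8.33 and 8.41 to 8.23, 8.05, 8.22 and 8.22 (log2 change -0.22 ± 0.04, adjusted p = 0.00122), and Ms4a6d rose from 9.44, 9.46, 9.46 and 9.52 to 9.73, 9.72, 9.80 and 9.67 (0.26 ± 0.04, adjusted p = 0.000178). All IL4 libraries lay below the control libraries for Ms4a6b and above them for Ms4a6d. Ms4a6c (-0.02 ± 0.04), Ms4a4c (-0.0017 ± 0.02) and Tmem176a (0.0087 ± 0.03) did not pass (adjusted p = 0.754, 0.972 and 0.897), and Tmem176b was 0.15 ± 0.03 higher. This contrast called 27.1% of all genes.

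No difference between the IL4 responses of the lines was called for the 5 genes tested, where 6.13% of all genes were, 3.56% with a higher and 2.57% with a lower response in shKDM1A cells. The response of Ms4a6b was 0.12 ± 0.06 higher in shKDM1A than in shGFP cells (95% interval -0.011 to 0.26, adjusted p = 0.262), that of Ms4a6c 0.07 ± 0.05 higher (-0.049 to 0.18, adjusted p = 0.512) and that of Ms4a6d 0.04 ± 0.06 higher (-0.087 to 0.16, adjusted p = 0.757). The values were 0.03 ± 0.03 for Ms4a4c (-0.035 to 0.10, adjusted p = 0.585) and -0.03 ± 0.05 for Tmem176a (-0.13 to 0.076, adjusted p = 0.792). Of the IL4 targets, 4 had a lower response in shKDM1A cells, among them Mrc1 (-0.82 ± 0.05) and Ptgs1 (-0.69 ± 0.05).

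Ms4a4a, whose protein is a marker of IL4-activated macrophages, had the lowest level of the 8 genes in RAW cells. It lay between -0.30 and -0.26 in all 16 libraries, a range of a few hundredths, and did not pass the filter. Ms4a7, another macrophage MS4A gene, lay between 0.95 and 1.00 and did not pass it either. Its libraries were ordered by IL4, at 0.953 to 0.962 in shGFP control against 0.979 to 0.996 in shGFP IL4 libraries and at 0.952 to 0.954 in shKDM1A control against 0.974 to 1.00 in shKDM1A IL4 libraries. The groups did not overlap in either line, with differences of 0.03 ± 0.01 and 0.03 ± 0.01. No p is given for them, since this pattern was picked out after the values were seen. KDM1A knockdown gave Ms4a7 differences of -0.0023 and -0.0017, with overlapping groups.

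Of 12 further MS4A genes looked for, 11 were in the table and 8 of these were listed at 0 in every library, among them Ms4a1 (CD20) and Ms4a2, the beta chain of the mast cell IgE receptor. Ms4a3 lay near -2.27 and Ms4a4d near -1.90. Ms4a4b passed the filter, with a mean of 3.31 in shGFP control, 3.32 in shGFP IL4, 3.36 in shKDM1A control and 3.37 in shKDM1A IL4 cells, and passed the test in none of the contrasts; it shares words of 50 bases with Ms4a4c.

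The receptors and adaptors that MS4A proteins are known to sit beside moved in both directions. Of 9 listed, 5 could be tested, and in shGFP cells 2 rose and 2 fell with IL4 (median log2 change -0.0012), where 26.9% of all genes were called. Clec7a, the beta-glucan receptor Dectin-1 and a known partner of MS4A4A, rose by 0.89 ± 0.05 (adjusted p = 3.67e-10), and Trem2, a lipid-sensing receptor, by 0.25 ± 0.03, while its adaptor Tyrobp fell by 0.22 ± 0.03 and Fcer1g, the common Fc receptor gamma chain, by 0.20 ± 0.02. After KDM1A knockdown without IL4, 1 of the 5 passed the test (38.2% of all genes), Syk, the kinase downstream of these receptors, which fell by 0.40 ± 0.02 (adjusted p = 9.16e-11). With IL4 2 were higher and 1 lower in shKDM1A cells (40.7% of all genes called). Vsig4, a partner of MS4A6D, was near -2.27 in every library, and Kit and Fcer1a were listed at 0.

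Of the NLRP3 inflammasome genes, 5 of 7 could be tested, and 1 rose and 1 fell after KDM1A knockdown without IL4 (median log2 change -0.018 against -0.0027 over all genes), beside 38.2% of all genes called in either direction. Gsdmd, the pore-forming gasdermin D, rose by 0.26 ± 0.02 (adjusted p = 2.58e-07) and the sensor gene Nlrp3 fell by 0.21 ± 0.04 (adjusted p = 0.000211), while Casp1 (-0.03 ± 0.05) did not pass. Il1b and the adaptor gene Pycard did not pass the filter. With IL4 again 1 was higher, Gsdmd (0.31 ± 0.02), and 1 lower, Nek7 (-0.11 ± 0.03), beside 40.7% of all genes called. The IL4 response of shGFP cells called 1 higher and 1 lower of these 5 (26.9% of all genes), and that of shKDM1A cells none (27.1%).

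Of 10 genes of the MHC class II route in the table, 6 could be tested, and 3 rose and 1 fell after KDM1A knockdown without IL4 (median log2 change 0.058), where 19.7% of all genes were called higher and 18.4% lower. Ctss, the protease cathepsin S, rose by 0.53 ± 0.02 (adjusted p = 1.66e-12), H2-DMa by 0.26 ± 0.04 and Ifi30, a lysosomal thiol reductase, by 0.14 ± 0.03, and H2-Ab1 fell by 0.05 ± 0.01. With IL4 the same 3 genes were higher and none was lower (20.9% and 19.8% of all genes). IL4 raised 2 of the 6 in shGFP cells (13.1% of all genes were called higher), Cd74, the invariant chain, by 0.82 ± 0.03 and Ifi30 by 0.09 ± 0.03. The antigen-presenting genes H2-Aa and H2-Eb1 and their regulator Ciita did not pass the filter.

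After KDM1A knockdown, the genes tested around the Tmem176 pair had smaller changes than the pair itself, which was listed for the strong change of Tmem176b. Almost any neighbours would change less than genes chosen in this way, so the comparison only describes the values. Within 250 kb of the pair, 21 other genes were listed and 5 could be tested. Their log2 changes with shKDM1A lay between -0.11 and 0.09 without IL4, where 1 was called higher and 2 lower (38.2% of all genes called), and between -0.20 and 0.06 with IL4, where none was called higher and 2 lower (40.7%), against -2.28 and -1.34 for the pair without IL4. The nearest of them, Gpnmb, a macrophage glycoprotein gene whose start lies 195.0 kb from that of Tmem176a, changed by -0.07 ± 0.03 without IL4 (95% interval -0.12 to -0.021, adjusted p = 0.025) and fell by 0.63 with IL4 in shGFP cells. In the MS4A cluster, Gm8369, between Ms4a6c and Ms4a6b, changed by less than 0.01 with IL4 in shGFP cells and with shKDM1A in either condition. Its highest value was 1.19, just above the filter, where the log2 scale holds values nearly constant, so little can be read from this. Mrpl16 and Stx3, beyond the 6 genes, had log2 changes of -0.18 and -0.17 with shKDM1A without IL4.

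**Figure D4:**
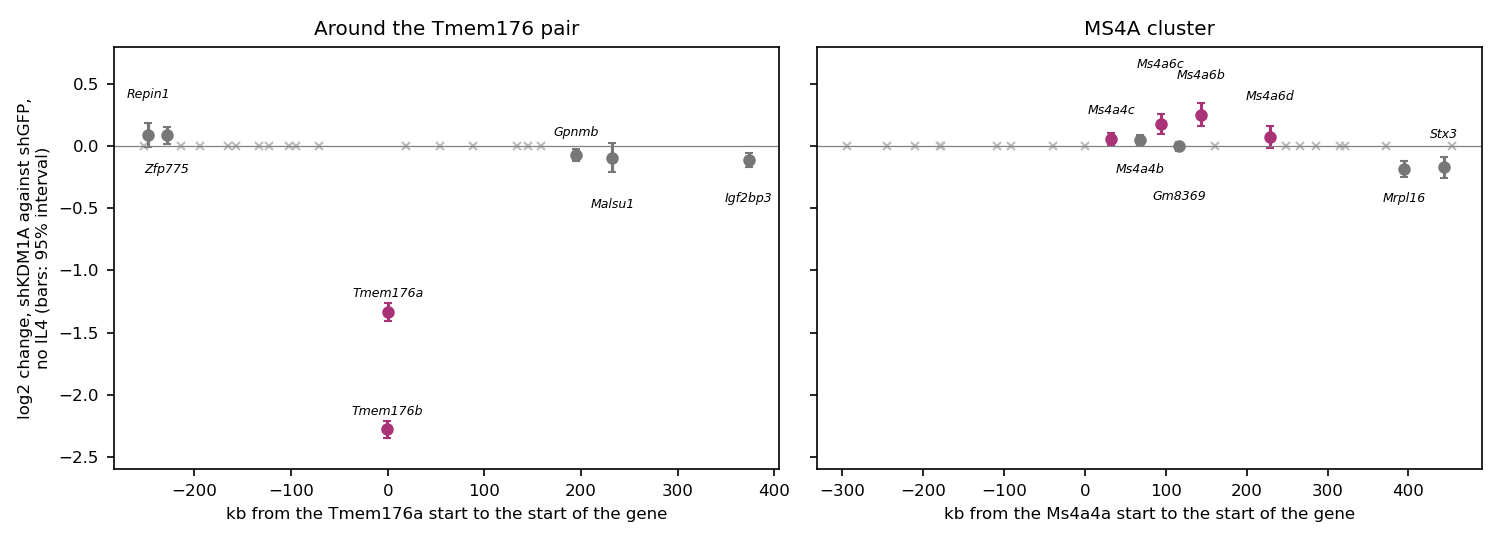
The plot of changes by position gives the log2 change with shKDM1A without IL4, with its 95% interval, against the distance in kb from the start of Tmem176a or of Ms4a4a to the start of each gene within 250 kb of the genes described. Purple points are the genes described here, grey points other genes tested, and crosses on the zero line genes that did not pass the filter. The Tmem176 pair, listed for the strong change of Tmem176b, lies at -1.34 and -2.28.

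Over the 16 libraries, the genes with the pattern most like Tmem176b among all genes tested were Spink5, a serine protease inhibitor gene (Pearson r = 0.997), Tmem176a itself (0.995) and Plcb2, a phospholipase C gene (0.995). For Tmem176a they were Plcb2 (0.998), Plxnd1, the semaphorin receptor plexin D1 (0.996), and Tmem176b. The libraries form separate groups by line, so these values mostly describe the step between shGFP and shKDM1A. Within groups r was -0.17 for the Tmem176 genes with each other, 0.28 for Spink5 with Tmem176b, 0.39 for Plcb2 with Tmem176a and -0.39 for Plcb2 with Tmem176b. Without IL4, the log2 change with shKDM1A was -1.40 for Spink5, -1.56 for Plcb2 and -0.85 for Plxnd1.

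The MS4A genes had other nearest genes. Ms4a6b was most like Prkch, a protein kinase C gene (r = 0.974), Idh1, the cytosolic isocitrate dehydrogenase (0.973), and Nampt, an enzyme of NAD synthesis (0.970), all of which were lower with IL4 in shGFP cells and higher with shKDM1A, and within groups their r with Ms4a6b was 0.63, 0.70 and 0.52. Ms4a6c was most like Ifi211, an interferon-inducible gene (0.931), Adpgk (0.928) and Cxcr5 (0.927), Ms4a6d like Micu2, a regulator of mitochondrial calcium uptake (0.941), Pla2g12a (0.935) and Gsto1 (0.932), and Ms4a4c like Ifit1bl2 (0.893), Cldnd1 (0.884) and Fam192a (0.883). Between MS4A genes, r over the 16 libraries was 0.82 for Ms4a6b with Ms4a6c and with Ms4a4c and 0.87 for Ms4a6c with Ms4a4c, with 0.35, 0.72 and 0.48 within groups. Ms4a6d stood apart, with r between -0.30 and 0.064 with the other 3, although its coding sequence is the one most like that of Ms4a6b. The points of these correlations share libraries and depth, and no p is given.

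**Figure D5:**
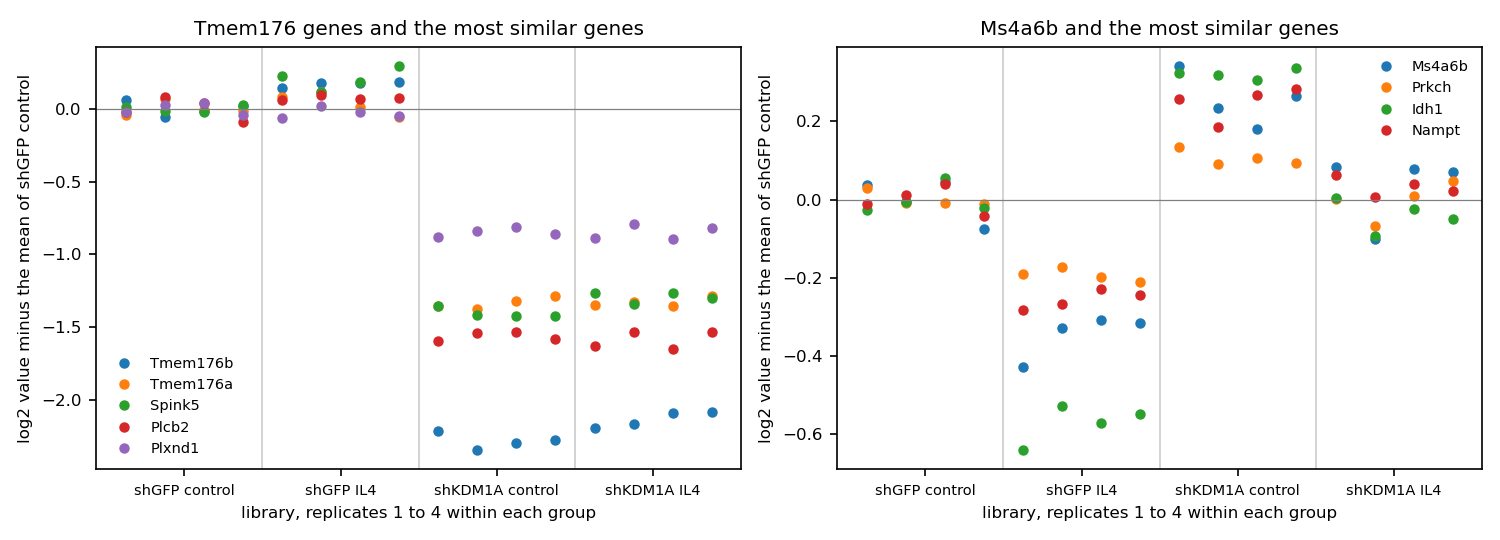
The plot of similar genes gives, for each of the 16 libraries, the log2 value of a gene minus its mean in shGFP control cells, for the Tmem176 genes with Spink5, Plcb2 and Plxnd1 and for Ms4a6b with Prkch, Idh1 and Nampt. The genes of the left panel differ mainly between the lines, and those of the right panel between the lines and with IL4.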

How the data were processed

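RNA-seq of 16 RAW cell libraries was analysed; the BMDM table, which holds the authors' own comparisons (fold changes on a log2 scale with raw and adjusted p-values), and the 9 such columns of the RAW table were not used. The authors aligned reads to mm9 with HISAT2 (Bowtie2 is named beside it), counted tags on exons of RefSeq genes without regard to strand and transformed the counts with HOMER and DESeq2 (versions not given in the sources used here). The deposited values are on a log2 scale that moderates genes with few reads. They are not counts, so a count test was not used, and each library's tag total was read from the column headers. Genes that reached 1 in 4 or more libraries (12905 of 25094) were fitted in limma 3.58.1 (R 4.3.3), as a model of 4 group means tested on simulated data beforehand, for 5 contrasts, with Benjamini-Hochberg adjustment over all genes tested and a threshold of 0.05. SEs and 95% intervals are from limma. The members and lists were chosen with earlier results of these data known. Named genes are the 8 members, other MS4A genes, the 3 genes with the highest Pearson r with each tested member, up to 4 examples per list by size of change, and Kdm1a; further genes (markers, neighbours within 250 kb, and genes that did not pass) were named after their values were seen. Sequences were read from the NCBIM37 (mm9) genome with GENCODE vM1, the build of the table; coding sequences were aligned with Biopython. Alternatives covered the filter, groups fitted, replicate block, library left out, scaling, prior variance and a limit on the change.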

Additional observations from a re-analysis of the deposited data

Results flagged for a closer look

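Of 32 groups of 4 libraries examined (8 genes in 4 groups), 2 held a library far from the others by Dixon's ratio, the gap to the nearest library divided by the range of the group. Chance alone gives about 1 such group in 20. In the shKDM1A control group, Ms4a4c was at 3.37 in replicate 3 against 3.44 to 3.45 in the others (ratio 0.864), and without this library its rise with shKDM1A passed the test. In the shKDM1A IL4 group, Ms4a6b was at 8.05 in replicate 2 against 8.22 to 8.23 in the others (ratio 0.933), and its calls in the contrasts that use this library held without it, as the ranges of adjusted p with 1 library left out show: 4.53e-07 to 2.64e-05 for shKDM1A with IL4 and 0.00103 to 0.00522 for IL4 in shKDM1A cells.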

How the results depend on the processing

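The changes of the Tmem176 genes with shKDM1A stayed within -1.40 to -1.31 for Tmem176a and -2.32 to -2.26 for Tmem176b when 1 library was left out. Requiring a log2 change over 0.5 as well cut the genes called to 174 for IL4 in shGFP cells, 337 for shKDM1A without IL4, 319 for shKDM1A with IL4, 141 for IL4 in shKDM1A cells and 17 for the difference of the responses, and left none of the MS4A genes called. The other settings kept these counts within 1.5 times, and leaving out 1 library gave 2975 to 3619, 4419 to 5048, 4697 to 5293, 3018 to 3539 and 530 to 1104 genes. Quantile normalization turned the share of calls that were higher from 51.7% to 43.2% for shKDM1A without IL4 and from 51.3% to 45.0% with IL4. Of the 5 contrasts of each member, signs changed only for values within 0.03 of 0. The IL4 response of Ms4a4c in shKDM1A cells became 0.0084 with median centring and 0.0060 with quantile normalization, and ranged from -0.020 to 0.012 with 1 library left out. With 1 library left out, that of Ms4a6c ranged from -0.051 to 0.0075, that of Tmem176a from -0.0050 to 0.024, and the difference of the responses of Tmem176b from -0.041 to 0.0035. Ms4a6d with shKDM1A and IL4 lost its call without a filter (adjusted p = 0.0731), and Ms4a4c with shKDM1A without IL4 gained one with a trended prior variance (adjusted p = 0.026); the cause was not tested. Replicate numbers did not pair the libraries: of 24 same-numbered pairs, 3 had correlated deviations over 0.1 (range -0.34 to 0.27). A replicate block gave 3430, 4882, 5212, 3459 and 732 genes in the order above and changed no call of a member. A pseudocount was not tried because the values are logarithms. The log2 scale holds the values of Ms4a4a and Ms4a7 nearly constant, so little can be read from their changes.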
